A study of Mus musculus with 9 samples.

Results

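The 11568 regions described here had a chromatin accessibility peak in Nanog knockout embryonic stem cells without and with Esrrb, and none in the peak list of knockout cells that carried both Esrrb and Nanog. They were chosen by the submitters' 3 peak lists, 1 for each group of libraries. A region of the count table on an autosome or the X chromosome was taken when it overlapped by at least 1 bp an interval of the NanogKO list and of the NanogKO:Esrrb list, and no interval of the NanogKO:Esrrb:Nanog list. The regions are 7.35% of the 157452 on those chromosomes, and 157497 were counted in all. Accessibility was measured by ATAC-seq, in which a transposase inserts sequencing adapters into open DNA, in mouse embryonic stem cells grown in serum with LIF and sorted as PECAM+ PDGFRA-. The 9 libraries fall into 3 groups of 3. NanogKO:Esrrb:Nanog cells (code 44JN) and NanogKO:Esrrb cells (44J) share the cell line label N{delta}:cE:iN, and NanogKO cells (44C6) have the label N{delta}, so all 3 groups carry the Nanog deletion. How Esrrb and Nanog were supplied, whether a line is 1 clone and whether replicates came from separate cultures are not given in the sources used here, so the spread between replicates may be technical.

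NANOG is a homeodomain transcription factor that binds DNA beside OCT4 and SOX2 at enhancers of pluripotent cells and holds them in self-renewal. ESRRB is an orphan nuclear receptor whose gene is a target of NANOG, and its expression can sustain self-renewal of mouse embryonic stem cells that lack Nanog. Many sites of accessible chromatin far from promoters are enhancers, and their accessibility changes with the transcription factors a cell makes.

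The libraries held 35545030 to 58520948 counts, the fewest in NanogKO:Esrrb:Nanog replicate 2. On the first 2 principal components of log2 CPM, NanogKO:Esrrb:Nanog replicate 3 stood apart from its group: it scored 5.48 on the second component, where replicates 1 and 2 scored 87.6 and 101. All 138118 intervals of the NanogKO:Esrrb:Nanog list bear a peak name of NanogKO:Esrrb replicate 3, as do all 129086 of the NanogKO:Esrrb list, and the 102788 names present in both have equal scores. The names and scores of the NanogKO:Esrrb:Nanog list therefore come from no library of that group, and its peaks could not be traced to one. Accessibility was found at defining genes of the cell type: the most accessible region within 1 kb of Pou5f1, which encodes OCT4, averaged 53.4 ± 2.82 CPM over NanogKO:Esrrb:Nanog, 33.7 ± 2.20 over NanogKO:Esrrb and 17.2 ± 1.97 over NanogKO libraries (SD, n = 3 each). Regions at the endoderm gene Sox17 were also accessible, with a highest group mean of 91.8 CPM.

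Promoters were few among the regions: 259 of them, or 2.24%, overlapped a window of 250 bases before to 50 after a RefSeq gene start, against 8.84% of all regions. The 4 promoter windows below are RefSeq sequence of GRCm38.p6, the assembly of mm10, printed along the gene's own strand. They were picked after the values were seen, to show a promoter region lower with Esrrb (Ldhc, Lgals3bp), 1 higher with Esrrb and low again with Nanog (4930590L20Rik), and 1 lower with Nanog than in both other groups (Olfml1). Capitals mark the letters TAATGG, a NANOG homeobox core, and CAGGTG, a ZEB-type E-box, read on either strand, so that CCATTA and CACCTG are the same motifs on the other strand.
Ldhc promoter, chr7:46861237-46861536, plus strand: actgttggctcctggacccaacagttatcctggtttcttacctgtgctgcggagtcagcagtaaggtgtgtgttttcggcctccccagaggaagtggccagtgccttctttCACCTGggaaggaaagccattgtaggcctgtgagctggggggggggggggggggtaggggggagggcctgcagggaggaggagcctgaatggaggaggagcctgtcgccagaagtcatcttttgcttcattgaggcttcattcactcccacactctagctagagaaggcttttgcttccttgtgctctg
Lgals3bp promoter, chr11:118401910-118402209, minus strand: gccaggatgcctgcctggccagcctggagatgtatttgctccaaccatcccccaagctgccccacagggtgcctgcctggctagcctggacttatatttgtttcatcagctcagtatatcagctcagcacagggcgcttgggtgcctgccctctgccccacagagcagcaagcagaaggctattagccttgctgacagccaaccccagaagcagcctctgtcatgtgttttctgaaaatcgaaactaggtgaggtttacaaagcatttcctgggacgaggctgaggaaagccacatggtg
4930590L20Rik promoter, chr1:140656353-140656652, minus strand: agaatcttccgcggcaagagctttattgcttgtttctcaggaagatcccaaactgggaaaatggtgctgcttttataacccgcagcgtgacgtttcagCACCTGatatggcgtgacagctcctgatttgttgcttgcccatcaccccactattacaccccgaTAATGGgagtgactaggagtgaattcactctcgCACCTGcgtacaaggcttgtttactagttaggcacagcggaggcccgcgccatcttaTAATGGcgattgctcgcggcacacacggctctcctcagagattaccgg
Olfml1 promoter, chr7:107567183-107567482, plus strand: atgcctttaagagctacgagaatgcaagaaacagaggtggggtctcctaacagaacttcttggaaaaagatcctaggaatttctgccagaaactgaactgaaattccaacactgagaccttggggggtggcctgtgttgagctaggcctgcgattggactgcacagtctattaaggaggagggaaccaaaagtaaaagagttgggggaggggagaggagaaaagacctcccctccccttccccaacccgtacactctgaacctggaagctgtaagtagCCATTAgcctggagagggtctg

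The region at the promoter of Ldhc, the lactate dehydrogenase of male germ cells, lies at chr7:46860962-46861673 and had 1.39, 1.11 and 1.78 CPM in NanogKO:Esrrb:Nanog libraries, 1.83, 1.69 and 2.47 CPM in NanogKO:Esrrb libraries and 7.63, 7.16 and 8.49 CPM in NanogKO libraries. Its NanogKO:Esrrb libraries were all below the NanogKO libraries, a 3.88-fold fall (log2 fold change -1.96 ± 0.19 SE, edgeR adjusted p = 6.54e-09). The region at the promoter of Lgals3bp, a secreted galectin-binding glycoprotein, at chr11:118401602-118402372, had 0.788, 1.06 and 1.37 CPM in NanogKO:Esrrb:Nanog libraries, 1.47, 1.66 and 1.72 CPM in NanogKO:Esrrb libraries and 6.10, 4.46 and 5.92 CPM in NanogKO libraries. It also fell with Esrrb, without overlap of the 2 groups (log2 fold change -1.76 ± 0.20 SE, edgeR adjusted p = 1.34e-07), and its window held none of the 19 motifs searched. At the uncharacterised gene 4930590L20Rik, the region chr1:140656239-140657044 had 1.29, 1.76 and 2.39 CPM in NanogKO:Esrrb:Nanog libraries, 5.03, 5.83 and 5.71 CPM in NanogKO:Esrrb libraries and 3.37, 2.99 and 2.72 CPM in NanogKO libraries. NanogKO:Esrrb libraries were the highest and NanogKO:Esrrb:Nanog libraries the lowest, with no overlap of any groups, and the rise of NanogKO:Esrrb over NanogKO passed the test (log2 fold change 0.87 ± 0.19 SE, edgeR adjusted p = 5.98e-04). At Olfml1, an olfactomedin-family gene, the region chr7:107567259-107567842 had 0.788, 1.20 and 1.90 CPM in NanogKO:Esrrb:Nanog libraries, 3.88, 2.24 and 4.92 CPM in NanogKO:Esrrb libraries and 4.63, 4.12 and 5.45 CPM in NanogKO libraries. Its 2 groups without Nanog overlapped (log2 fold change -0.36 ± 0.24 SE, edgeR adjusted p = 0.25), and the NanogKO:Esrrb:Nanog libraries lay below both.

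In the 285 promoter windows that these regions overlapped, belonging to 272 genes, the median GC content was 52.7%, against 61.3% in windows overlapped by regions with a peak in all 3 lists and 52.7% in all 32851 windows. The 19 motifs were searched on both strands. The E-box CAGGTG was in 27.4% of these windows and 20.2% of all windows, the AP-1 site TGANTCA in 11.2% and 7.81%, the TEAD motif GGAATG in 16.5% and 14.7%, the ZIC motif CAGCAGG in 14.0% and 10.5%, and TAATGG in 8.77% and 7.73%. The short nuclear receptor site AAGGTCA was in 4.21% and 4.72%, and the extended ESRRB site TCAAGGTCA, which contains the short one, in 0% of these windows and 0.423% of all windows. The octamer ATGCAAAT was in 2.46% and 1.74%, the SOX motif AACAATG in 3.16% and 3.78%, the FOX motif TGTTTAC in 4.21% and 3.65%, the GATA motif AGATAAG in 3.16% and 3.04%, the GRHL motif AACCNGTT in 2.81% and 2.09%, the TCF and LEF motif ATCAAAG in 3.51% and 3.73%, and the OTX motif GGATTA in 6.32% and 7.06%. The ETS motif CCGGAAGT was in 2.11% of these windows and 3.89% of all windows, the KLF motif CCNCACCC in 14.7% and 16.6%, the CTCF core AGGGGGC in 8.42% and 10.6%, the NFY motif CCAAT in 33.0% and 37.4%, and the STAT motif TTCCNGGAA in 0.351% and 1.15%. These are matches of letters in a promoter window and were not tested, and the regions away from promoters were not searched.

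Accessibility over the 11568 regions was lowest in the cells with Nanog. The median region had 1.04, 1.06 and 1.38 CPM in NanogKO:Esrrb:Nanog replicates 1, 2 and 3, then 1.71, 1.71 and 1.81 CPM in the NanogKO:Esrrb replicates and 1.95, 2.00 and 2.03 CPM in the NanogKO replicates. CPM are counts scaled to the library's total and its TMM factor. The 9 medians do not overlap between groups, and replicate 3 of NanogKO:Esrrb:Nanog was the highest of its group. In share of all counts the regions took 1.56 ± 0.277% in NanogKO:Esrrb:Nanog, 2.45 ± 0.102% in NanogKO:Esrrb and 2.96 ± 0.0990% in NanogKO libraries (SD, n = 3 each). Both the absence from 1 list and the presence in 2 chose the regions, so the low level with Nanog describes the choice. In such bulk libraries, fewer cells with an open region and less opening per cell cannot be told apart. The regions with a peak in all 3 lists, 87109 in number, had medians of 6.14 ± 0.0571, 5.88 ± 0.113 and 5.88 ± 0.0558 CPM in the same order of groups. The chosen regions were therefore weakly accessible in every group, at a median of 36 to 109 counts per region and library, and 2 and 8 of them had no count in NanogKO:Esrrb:Nanog replicates 1 and 2.

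**Figure D1:**
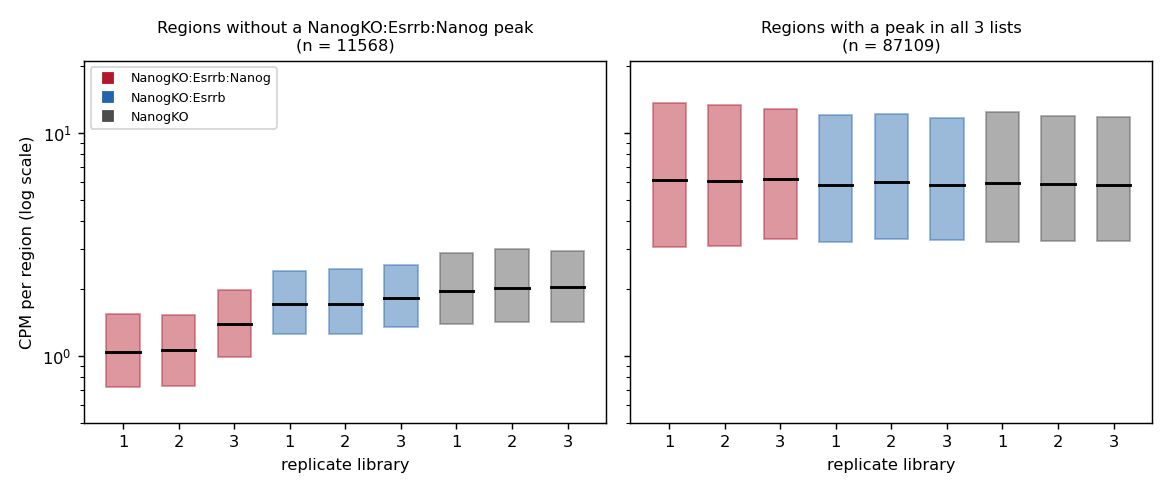
Accessibility in each of the 9 libraries, as CPM per region on a log scale, over the 11568 regions without a NanogKO:Esrrb:Nanog peak (left) and the 87109 regions with a peak in all 3 lists (right). Boxes span the middle 50% of regions and black lines are medians, which on the left run between 1.04 and 2.03 CPM and on the right between 5.81 and 6.21 CPM.

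The 3 comparisons, which share libraries, gave the following differences over the regions. NanogKO:Esrrb:Nanog against NanogKO:Esrrb had a median log2 fold change of -0.58 over the regions and -0.01 over all 157439 tested, and against NanogKO of -0.74 and -0.01. In the first, edgeR called 4906 regions lower, or 42.4%, where 12.0% of all tested regions were lower, and 26 higher, where 12.6% of all were higher. In the second it called 7060 lower, or 61.0%, against 24.4% of all, and 115 higher, against 24.9% of all. These counts restate the choice and nothing is read from them. Every NanogKO:Esrrb:Nanog library lay below all 6 others in 5152 regions, or 44.5%, where 11.6% of all tested regions did. It lay below every NanogKO:Esrrb library in 6306, or 54.5%, where 19.4% of all did, and below every NanogKO library in 7370, or 63.7%, where 27.8% of all did. Without NanogKO:Esrrb:Nanog replicate 3 the count below all 6 others was 7625, or 65.9%, where 19.3% of all tested regions did. The level with Nanog was not the lowest everywhere: in 1127 regions the NanogKO:Esrrb:Nanog mean lay between the other 2 means, and in 317 it was the highest of the 3. The mean was lowest with Nanog and highest in NanogKO in 6933 regions, and lowest with Nanog and highest in NanogKO:Esrrb in 3191.

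**Figure D2:**
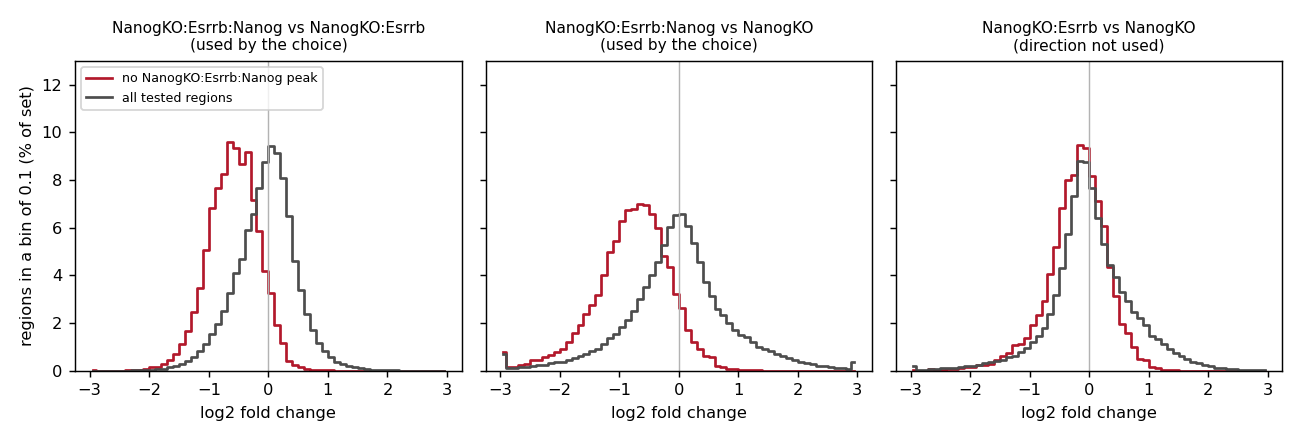
Distribution of log2 fold changes over the 11568 regions (red) and over all 157439 tested regions (grey), as the percentage of each set in bins of 0.1; values beyond 3 are in the end bins. The red curve is shifted left where Nanog-carrying cells are compared (medians -0.58 and -0.74), the comparisons the choice used, and has its median at -0.16 for NanogKO:Esrrb against NanogKO.

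The choice used peaks in both groups without Nanog and did not name the direction between them, but it can bear on it. It left out regions with an interval in the list of a group that also carries Esrrb. The intervals of that list bear peak names of NanogKO:Esrrb replicate 3. NanogKO:Esrrb was compared with NanogKO region by region, on the libraries from which the peaks were called. The shares below may partly reflect the choice. More of these regions were lower with Esrrb than were higher. NanogKO:Esrrb was lower than NanogKO in 2300 regions, or 19.9%, where 17.0% of all tested regions were lower, and higher in 495, or 4.28%, where 20.0% of all were higher (edgeR quasi-likelihood F test, Benjamini-Hochberg adjusted p under 0.05). The share of lower regions was near that of all regions, and the share of higher ones was below it. Regions with no NanogKO peak were left out by the choice, whatever their level with Esrrb. The fall was over 2-fold in 799 regions, or 6.91%, where it was in 6.01% of all tested regions. The rise was over 2-fold in 49, or 0.424%, where it was in 8.37% of all tested regions. The median log2 fold change was -0.16, beside -0.01 over all tested regions and -0.05 over those with a peak in all 3 lists. The 3933 regions that lacked a peak only in the NanogKO:Esrrb list had a median of -0.40, with 36.3% lower and 0.686% higher, in a contrast that chose them. Both counts were smaller whichever library of these 2 groups was left out. The 495 became 311 (without NanogKO replicate 2) to 376 (without NanogKO:Esrrb replicate 1). The 2300 became 1744 (without NanogKO:Esrrb replicate 1) to 2015 (without NanogKO:Esrrb replicate 3).

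The 2300 that fell had a median of group means of 1.20 CPM in NanogKO:Esrrb:Nanog, 1.80 in NanogKO:Esrrb and 3.51 in NanogKO. The 495 that rose had 1.75, 2.92 and 1.73 CPM, so their level with Nanog lay near that of NanogKO. The 8773 that were not called had 1.13, 1.70 and 1.77 CPM. Every library with Nanog lay below all 6 others in 1297 of the regions that fell, 56.4%, and in 59 of those that rose, 11.9%. This was so in 44.5% of all chosen regions, which the choice favours, and in 11.6% of all tested regions. The regions that fell had a median score of 92 in the NanogKO:Esrrb list and 204 in the NanogKO list, and those that rose had 174 and 65, where the score is the one the authors' peak files give each peak.

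Among regions at or above the median abundance, the largest rise with Esrrb lay in Cep57l1, which encodes a CEP57-like centrosomal protein. This region, chr10:41791453-41792119, had 3.96, 4.69 and 4.51 CPM in NanogKO:Esrrb:Nanog libraries, 6.32, 8.91 and 6.42 CPM in NanogKO:Esrrb libraries and 2.95, 1.97 and 2.31 CPM in NanogKO libraries, and rose 3.02-fold (log2 fold change 1.59 ± 0.18 SE, edgeR adjusted p = 1.02e-07). The 3 groups do not overlap there, with Nanog between the others. In Msi2, the gene of an RNA-binding protein of stem and progenitor cells, chr11:88688767-88689551 had 13.9, 12.7 and 16.3 CPM in NanogKO:Esrrb:Nanog libraries, 15.4, 17.4 and 14.5 CPM in NanogKO:Esrrb libraries and 5.49, 5.71 and 5.84 CPM in NanogKO libraries. The rise with Esrrb (log2 fold change 1.47 ± 0.13 SE, edgeR adjusted p = 1.98e-09) was present with Nanog too, where the libraries overlapped those of NanogKO:Esrrb although the list holds no peak. The other 3 of the 5 largest rises lay near the claudin-like gene Cldn34b4, in the zinc finger gene Zfp975 and near the aldehyde oxidase gene Aox3. Near Cldn34b4, chrX:76361613-76362114 had 1.76, 1.53 and 2.82 CPM in NanogKO:Esrrb:Nanog libraries, 3.68, 3.48 and 3.41 CPM in NanogKO:Esrrb libraries and 1.44, 1.12 and 1.22 CPM in NanogKO libraries (log2 fold change 1.49 ± 0.22 SE, edgeR adjusted p = 6.15e-06). All of its NanogKO:Esrrb values were above every other value. The rises were 1.43 at Zfp975 and 1.33 at Aox3 on the log2 scale, with SE of 0.24 and 0.22.

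The 5 largest falls were 7.39-fold or more and left the regions low in both groups with Esrrb. The region chr12:109527425-109527692, 37208 bp from the imprinted gene Rtl1, had 1.91, 1.35 and 1.49 CPM in NanogKO:Esrrb:Nanog libraries, 1.15, 1.04 and 0.922 CPM in NanogKO:Esrrb libraries and 11.3, 10.3 and 9.27 CPM in NanogKO libraries, a 9.90-fold fall with Esrrb (log2 fold change -3.31 ± 0.18 SE, edgeR adjusted p = 1.23e-12). Its libraries with Nanog were all above those of NanogKO:Esrrb and far below NanogKO. In Prdm1, which encodes the repressor BLIMP1 of germ cell specification, chr10:44488865-44489313 had 1.62, 0.880 and 1.35 CPM in NanogKO:Esrrb:Nanog libraries, 1.39, 1.74 and 2.04 CPM in NanogKO:Esrrb libraries and 12.4, 17.8 and 11.0 CPM in NanogKO libraries (log2 fold change -2.99 ± 0.20 SE, edgeR adjusted p = 1.82e-11). NanogKO stood apart from both groups with Esrrb, which overlapped each other. In Srgap2, chr1:131427328-131427869 had 0.539, 1.17 and 1.28 CPM in NanogKO:Esrrb:Nanog libraries, 1.29, 1.34 and 1.58 CPM in NanogKO:Esrrb libraries and 10.5, 12.9 and 9.04 CPM in NanogKO libraries (log2 fold change -2.94 ± 0.21 SE, edgeR adjusted p = 5.26e-11). All 3 libraries with Nanog lay just below the NanogKO:Esrrb libraries there. The adhesion receptor gene Adgrf4 held a region (chr17:42670943-42671480) that fell to a mean of 2.04 CPM in NanogKO:Esrrb, against 15.4 CPM in NanogKO libraries (log2 fold change -2.91), and the kinase gene Camk1d one (chr2:5483869-5484568) that fell to 1.93 CPM, against 14.2 CPM (log2 fold change -2.88).

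**Figure D3:**
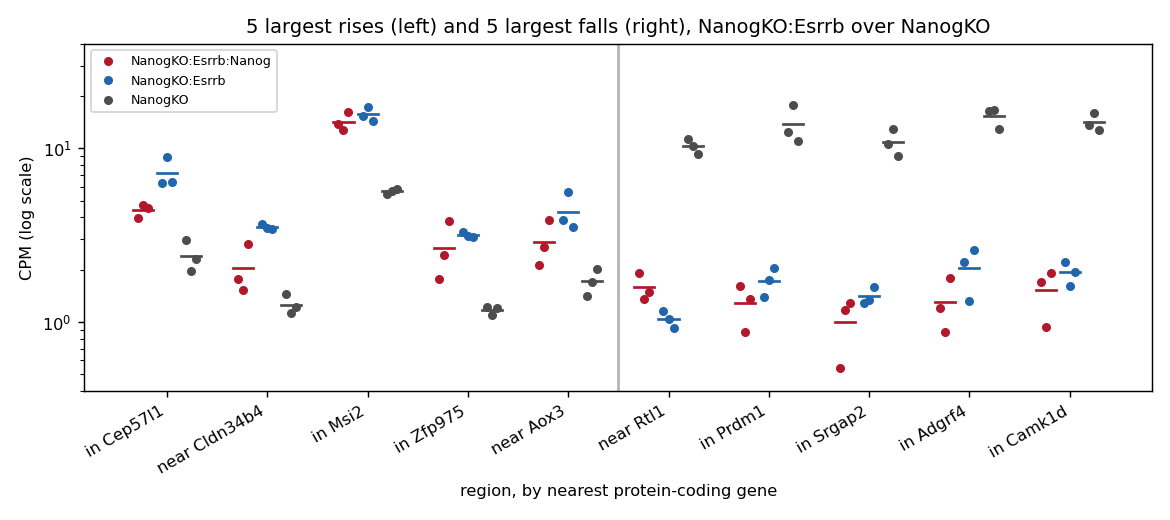
CPM on a log scale in each library at the 5 largest rises and the 5 largest falls of NanogKO:Esrrb over NanogKO; points are libraries and bars are group means (n = 3). At the falls the NanogKO libraries lie between 9.04 and 17.8 CPM and every other library below 3 CPM; at Msi2 the libraries with Nanog lie at 12.7 to 16.3 CPM and overlap those of NanogKO:Esrrb.

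The most accessible of the chosen regions included sites beside a ribosomal protein gene and amino acid transporter genes. By mean CPM over the 6 libraries without Nanog the leader was chr17:3028263-3032697, 4435 bp long and the longest of all, 82275 bp from Scaf8 and close to the start of its chromosome, with 16.0, 12.0 and 15.8 CPM in NanogKO:Esrrb:Nanog libraries, 28.5, 15.2 and 24.7 CPM in NanogKO:Esrrb libraries and 38.6, 19.6 and 21.5 CPM in NanogKO libraries. Its NanogKO:Esrrb and NanogKO libraries overlapped (log2 fold change -0.22 ± 0.20 SE, edgeR adjusted p = 0.4). Next came chr2:32964555-32965268, 510 bp from the ribosomal protein gene Rpl12, with 13.5, 12.4 and 15.4 CPM in NanogKO:Esrrb:Nanog libraries, 18.1, 19.1 and 17.0 CPM in NanogKO:Esrrb libraries and 35.2, 30.1 and 25.7 CPM in NanogKO libraries (log2 fold change -0.75 ± 0.12 SE, edgeR adjusted p = 2.57e-05). The 3 groups do not overlap there, and the libraries with Nanog are the lowest. At Nfe2, which encodes an erythroid transcription factor, chr15:103247172-103248050 averaged 8.79 ± 3.18 CPM over NanogKO:Esrrb:Nanog, 12.3 ± 0.498 CPM over NanogKO:Esrrb and 24.5 ± 5.25 CPM over NanogKO libraries (SD, n = 3 each) and fell with Esrrb (log2 fold change -0.99 ± 0.17 SE, edgeR adjusted p = 5.49e-05). The strongest fall of the 10 was at chr11:54162931-54163551, 31263 bp from the collagen prolyl hydroxylase gene P4ha2, with 2.24, 2.17 and 2.27 CPM in NanogKO:Esrrb:Nanog libraries, 4.85, 3.58 and 4.92 CPM in NanogKO:Esrrb libraries and 30.2, 26.9 and 23.9 CPM in NanogKO libraries (log2 fold change -2.60 ± 0.14 SE, edgeR adjusted p = 9.21e-13). All 3 groups are apart there, in steps from the lowest with Nanog to the highest in NanogKO. Regions 1648 bp from the amino acid transporter gene Slc1a4 and in the carbonic anhydrase-related gene Car11 also fell, by 1.18 ± 0.14 and 0.81 ± 0.13 on the log2 scale (SE). The region near Slc3a2, which encodes the heavy chain of amino acid transporters, fell too (log2 fold change -0.71 ± 0.23 SE, edgeR adjusted p = 0.018), but had 6.95, 7.63 and 19.1 CPM with Nanog, the highest in the replicate that stood apart, and the call was lost without NanogKO replicate 1, NanogKO:Esrrb replicate 1 or NanogKO:Esrrb replicate 2. It was also lost with DESeq2 on all libraries (log2 fold change -0.71, adjusted p = 0.19). In Sfi1, a centrosome gene, and near the glycosyltransferase gene B3gnt7, the log2 fold changes were -0.21 and -0.10 and did not pass the test.

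The lowest levels with Nanog are given as a description, since the choice used this contrast. Among regions where every library with Nanog lay below all others, the largest difference to NanogKO:Esrrb was -3.08 on the log2 scale, at chr6:3201205-3201545, with 0.228, 0.0587 and 0.605 CPM in NanogKO:Esrrb:Nanog libraries, 3.36, 3.57 and 1.48 CPM in NanogKO:Esrrb libraries and 4.56, 2.44 and 0.750 CPM in NanogKO libraries. Its values within NanogKO run from 0.750 to 4.56 CPM, it lies close to the start of its chromosome and its nearest gene, Samd9l, is 170712 bp away. The region chr8:43262359-43262839, 32228 bp from the naive pluripotency gene Zfp42 (REX1), had 0.726, 0.587 and 0.847 CPM in NanogKO:Esrrb:Nanog libraries, 4.05, 1.94 and 4.02 CPM in NanogKO:Esrrb libraries and 3.51, 3.05 and 3.47 CPM in NanogKO libraries. Nanog and no-Nanog libraries are apart there (log2 fold change -2.18 to NanogKO:Esrrb), while the 2 groups without Nanog overlap (edgeR adjusted p = 0.99). In the zinc finger gene Zfp638, chr6:83908269-83908676 had 1.12, 0.763 and 1.38 CPM in NanogKO:Esrrb:Nanog libraries, 6.38, 3.38 and 5.38 CPM in NanogKO:Esrrb libraries and 4.15, 3.51 and 4.89 CPM in NanogKO libraries. The groups without Nanog overlap here too, and the level with Nanog was 4.51-fold below that of NanogKO:Esrrb. In contrast, chr5:136600534-136600832, 32944 bp from the homeobox gene Cux1, had 0.290, 0.763 and 0.450 CPM in NanogKO:Esrrb:Nanog libraries, 1.91, 3.53 and 1.74 CPM in NanogKO:Esrrb libraries and 8.24, 9.06 and 8.62 CPM in NanogKO libraries, with all 3 groups apart. All 3 groups were likewise apart in the adhesion receptor gene Adgrl3 (-2.29), near the transposase-derived gene Pgbd5 (-2.28) and the deubiquitinase gene Usp38 (-2.10). The groups without Nanog overlapped at a region 19514 bp from Mfge8 (-2.24). They also overlapped at 2 regions far from any protein-coding gene, 223794 bp from Galc (-2.29) and 321042 bp from Alkbh8 (-2.10). The last, chr9:3011788-3014189, lies close to the start of its chromosome. Values in brackets are log2 fold changes of NanogKO:Esrrb:Nanog to NanogKO:Esrrb.

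Accessibility at the genes that were manipulated does not check the deletion or the supply of either factor. Of the 25 regions in or within 50 kb of Nanog 2 were chosen, beside 7.35% of all regions. Both lay inside its neighbour Slc2a3, the glucose transporter GLUT3. The one at chr6:122744577-122745205, 29944 bp from Nanog, had 6.32, 6.51 and 7.30 CPM in NanogKO:Esrrb:Nanog libraries, 5.98, 7.23 and 5.83 CPM in NanogKO:Esrrb libraries and 9.80, 10.8 and 9.59 CPM in NanogKO libraries. It fell with Esrrb (log2 fold change -0.66 ± 0.14 SE, edgeR adjusted p = 3.57e-04) and had a like range with Nanog. The other, at chr6:122742849-122743062, had 2.27 to 4.09 CPM in the groups without Nanog and was not called. Of the 42 regions in or within 50 kb of Esrrb 2 were chosen, at chr12:86320411-86320550 and chr12:86329960-86330245. They had at most 1.68 CPM in any library and no call.

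The genes of 14 lists, 180 in all, describe the surroundings by role. Of 3737 regions in or within 50 kb of a listed gene, 226, or 6.05%, had no peak with Nanog, beside 7.35% of all regions, and they lay at 125 genes. With Esrrb 46 of the 226 fell and 10 rose, beside 19.9% lower and 4.28% higher among all 11568 chosen regions and 17.0% lower and 20.0% higher among all tested regions. Each list is given by its counts, to be read beside these shares, with no test of the list.

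**Figure D4:**
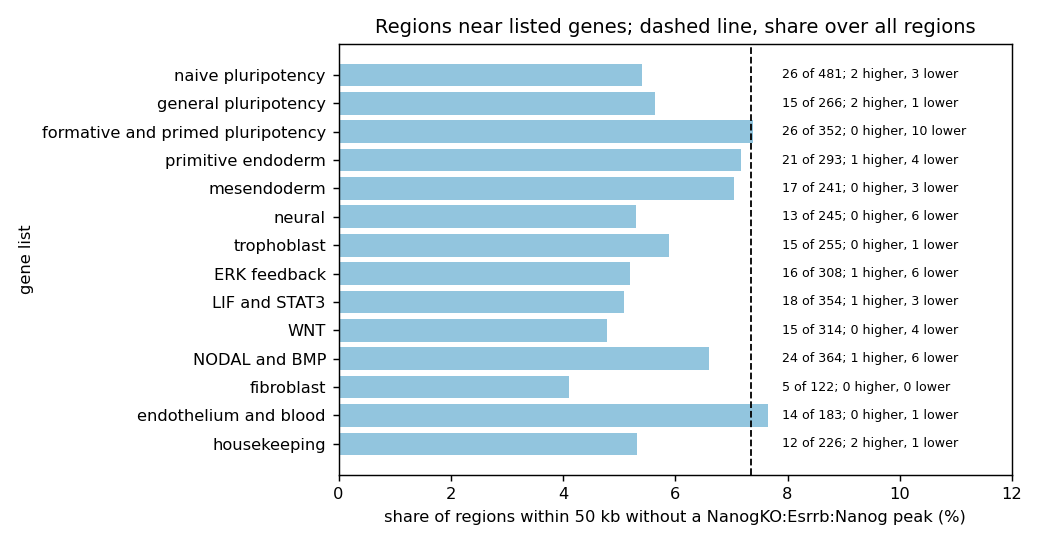
Share of the regions in or within 50 kb of each list's genes that had no NanogKO:Esrrb:Nanog peak, with the count and the number called higher or lower in NanogKO:Esrrb than in NanogKO; the dashed line is the 7.35% of all regions. The shares run from 4.10% (fibroblast) to 7.65% (endothelium and blood), and lower calls outnumber higher ones most at formative and primed genes.

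At naive pluripotency genes, which are active in the ground state of embryonic stem cells, 26 of 481 regions were among the chosen, 2 higher and 3 lower with Esrrb. Klf2, a Kruppel-like factor of that state, had 5 of them, the most of the list; the strongest, chr8:72322815-72323280, 1161 bp from the gene, had 5.54, 5.90 and 9.61 CPM in NanogKO:Esrrb:Nanog libraries, 5.98, 6.30 and 7.06 CPM in NanogKO:Esrrb libraries and 5.85, 5.68 and 7.99 CPM in NanogKO libraries. All groups overlap there (log2 fold change -0.01 ± 0.18 SE, edgeR adjusted p = 0.96). At general pluripotency genes 15 of 266 regions were chosen, 2 higher and 1 lower. A region 126 bp from Pou5f1, chr17:35505605-35505906, had 5.85, 5.08 and 8.11 CPM in NanogKO:Esrrb:Nanog libraries, 6.38, 6.58 and 6.37 CPM in NanogKO:Esrrb libraries and 4.41, 4.50 and 4.76 CPM in NanogKO libraries. It rose with Esrrb (log2 fold change 0.50 ± 0.16 SE, edgeR adjusted p = 0.016), and the libraries with Nanog spanned that level. Without NanogKO replicate 1 or 2 the rise did not pass. Inside Neb and 45451 bp from Rif1, a telomere and replication timing factor, chr2:52172220-52173216 had 2.92, 2.17 and 2.71 CPM in NanogKO:Esrrb:Nanog libraries, 4.65, 5.88 and 5.15 CPM in NanogKO:Esrrb libraries and 8.27, 11.5 and 8.92 CPM in NanogKO libraries, with 3 groups apart (log2 fold change -0.87 ± 0.16 SE, edgeR adjusted p = 8.17e-05).

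At genes of the formative and primed states, through which cells leave naive pluripotency, 26 of 352 regions were chosen. Of these 10 fell with Esrrb and none rose, where 17.0% of all tested regions were lower and 20.0% higher. Among all chosen regions 19.9% were lower and 4.28% higher. Their median log2 fold change was -0.40, beside -0.16 over all chosen regions and -0.01 over all tested ones. In 17 every library with Nanog was below all others, which the choice favours, as it was in 44.5% of the chosen regions and 11.6% of all tested ones. In Grhl2, an epithelial transcription factor of this transition, chr15:37313027-37313978 had 2.22, 2.58 and 3.10 CPM in NanogKO:Esrrb:Nanog libraries, 3.24, 3.12 and 3.78 CPM in NanogKO:Esrrb libraries and 7.51, 8.65 and 8.01 CPM in NanogKO libraries (log2 fold change -1.26 ± 0.16 SE, edgeR adjusted p = 6.54e-07). Its 3 groups do not overlap. The region chr10:78016797-78017155 lies 6990 bp from Pfkl, its nearest gene, and 25132 bp from Dnmt3l, the cofactor of de novo DNA methylation. It had 1.45, 1.47 and 2.96 CPM in NanogKO:Esrrb:Nanog libraries, 4.07, 3.42 and 4.38 CPM in NanogKO:Esrrb libraries and 7.24, 8.34 and 8.07 CPM in NanogKO libraries (log2 fold change -1.0 ± 0.19 SE, edgeR adjusted p = 1.91e-04). Again the groups are apart, though the highest library with Nanog is the replicate that stood apart. Fgf5, the growth factor that marks the state, had 3 such regions of the 8 within 50 kb of it, and Dnmt3a, a DNA methyltransferase, 3 of 46.

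At primitive endoderm genes 21 of 293 regions were chosen, 1 higher and 4 lower. A region 27910 bp from Lamb1, a laminin chain of the basement membrane these cells secrete, averaged 0.847 ± 0.233 CPM over NanogKO:Esrrb:Nanog, 1.48 ± 0.0932 CPM over NanogKO:Esrrb and 3.21 ± 0.398 CPM over NanogKO libraries (SD, n = 3 each) at chr12:31236894-31237236 (log2 fold change -1.12 ± 0.21 SE, edgeR adjusted p = 1.55e-04). Another, 15543 bp from the laminin gene Lamc1, chr1:153348329-153348671, had 1.35, 1.29 and 1.69 CPM in NanogKO:Esrrb:Nanog libraries, 2.35, 2.70 and 2.99 CPM in NanogKO:Esrrb libraries and 3.12, 4.19 and 4.40 CPM in NanogKO libraries. It fell (log2 fold change -0.55 ± 0.19 SE, edgeR adjusted p = 0.025), but the fall did not pass without NanogKO replicate 2 or 3 or NanogKO:Esrrb replicate 1 or 2. Mesendoderm genes had 17 of 241 regions, none higher and 3 lower, and one in the homeobox gene Evx1 was not called (log2 fold change -0.24 ± 0.13 SE, edgeR adjusted p = 0.18). Neural genes had 13 of 245, none higher and 6 lower. In the homeobox gene Meis2, chr2:115879590-115879993 had 0.705, 0.587 and 1.11 CPM in NanogKO:Esrrb:Nanog libraries, 1.63, 1.29 and 1.91 CPM in NanogKO:Esrrb libraries and 3.59, 5.27 and 4.30 CPM in NanogKO libraries, with all groups apart (log2 fold change -1.45 ± 0.22 SE, edgeR adjusted p = 9.08e-06). In Pax6, a regulator of the neural tube and eye, chr2:105669495-105670157 had 5.43, 5.54 and 6.42 CPM in NanogKO:Esrrb libraries and 7.63, 7.59 and 7.22 CPM in NanogKO libraries, and the difference did not pass (log2 fold change -0.37 ± 0.15 SE, edgeR adjusted p = 0.053); with the replicate number as a block the adjusted p was 0.034. Trophoblast genes had 15 of 255, none higher and 1 lower, 22595 bp from Tfap2c (log2 fold change -1.04 ± 0.20 SE, edgeR adjusted p = 2.00e-04); a region in its relative Tfap2a was not called (log2 fold change -0.37 ± 0.16 SE, edgeR adjusted p = 0.072), with an adjusted p of 0.046 under the same block.

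In Smad6, an intracellular inhibitor of BMP signalling, chr9:63992771-63993363 had 1.49, 0.939 and 1.31 CPM in NanogKO:Esrrb:Nanog libraries, 1.49, 1.52 and 1.93 CPM in NanogKO:Esrrb libraries and 11.0, 9.61 and 10.7 CPM in NanogKO libraries, a 6.32-fold fall with Esrrb (log2 fold change -2.66 ± 0.18 SE, edgeR adjusted p = 1.53e-11). NanogKO is apart from both groups with Esrrb. A region 16471 bp from Skil, a repressor of TGF-beta signalling, chr3:31077711-31078587, had 1.16, 1.47 and 1.80 CPM in NanogKO:Esrrb:Nanog libraries, 3.00, 3.10 and 4.12 CPM in NanogKO:Esrrb libraries and 11.5, 13.7 and 10.6 CPM in NanogKO libraries (log2 fold change -1.81 ± 0.17 SE, edgeR adjusted p = 4.42e-09). All 3 groups are apart and Nanog libraries are lowest. NODAL and BMP genes together had 24 of 364 regions, 1 higher and 6 lower.

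At LIF and STAT3 genes 18 of 354 regions were chosen, 1 higher and 3 lower. The region 2543 bp from Cish, a cytokine-induced inhibitor of STAT signalling, at chr9:107305327-107306330, had 1.45, 1.82 and 1.97 CPM in NanogKO:Esrrb:Nanog libraries, 3.02, 2.26 and 2.92 CPM in NanogKO:Esrrb libraries and 14.4, 13.3 and 15.0 CPM in NanogKO libraries (log2 fold change -2.38 ± 0.16 SE, edgeR adjusted p = 1.34e-11). Each group is apart from the others, Nanog lowest. In the kinase gene Pim1, a STAT3 target, a region had log2 fold change 0.08 with Esrrb and was not called. ERK feedback genes had 16 of 308, 1 higher and 6 lower. Of the 6 falls, 3 lay in reach of Etv5, an ETS transcription factor gene that ERK signalling induces: chr16:22456434-22457112 (log2 fold change -1.01 ± 0.16 SE, edgeR adjusted p = 1.04e-05), chr16:22449307-22449695 (log2 fold change -0.68 ± 0.24 SE, edgeR adjusted p = 0.027) and chr16:22457876-22458273 (log2 fold change -0.61 ± 0.20 SE, edgeR adjusted p = 0.017). The second did not pass without NanogKO replicate 1 or 3 or NanogKO:Esrrb replicate 2, nor the third without NanogKO replicate 2 or NanogKO:Esrrb replicate 1. The first and the third lie nearer to Dgkg, at 9456 and 8295 bp, than to Etv5, at 16864 and 18306 bp. A region 17128 bp from Spred2, a RAS and ERK inhibitor, chr11:20041154-20041688, had 2.49, 1.11 and 1.97 CPM in NanogKO:Esrrb:Nanog libraries, 1.93, 2.46 and 2.33 CPM in NanogKO:Esrrb libraries and 5.63, 6.28 and 5.58 CPM in NanogKO libraries (log2 fold change -1.38 ± 0.20 SE, edgeR adjusted p = 5.48e-06), the groups with Esrrb overlapping and both below NanogKO. One 2053 bp from Dusp4, an ERK phosphatase, chr8:34804877-34805557, had 8.85, 8.33 and 8.18 CPM in NanogKO:Esrrb:Nanog libraries, 12.5, 9.48 and 12.7 CPM in NanogKO:Esrrb libraries and 15.9, 15.3 and 16.3 CPM in NanogKO libraries (log2 fold change -0.46 ± 0.13 SE, edgeR adjusted p = 0.0056). The groups do not overlap, and the fall with Esrrb did not pass without NanogKO:Esrrb replicate 2. WNT genes had 15 of 314, none higher and 4 lower, the strongest in Znrf3, a ligase that removes WNT receptors (log2 fold change -1.28 ± 0.20 SE, edgeR adjusted p = 1.47e-05), and a region in Anapc11, 45437 bp from the WNT deacylase gene Notum, was not called (log2 fold change -0.37 ± 0.16 SE, edgeR adjusted p = 0.074).

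Fibroblast genes had 5 of 122 regions with no call. One lies 2078 bp from Lum and had 0.352, 0.352 and 1.40 CPM in NanogKO:Esrrb:Nanog, 1.57, 2.73 and 1.24 CPM in NanogKO:Esrrb, then 1.73, 1.01 and 0.466 CPM in NanogKO libraries. Its log2 fold change with Esrrb was 0.81 and did not pass (edgeR adjusted p = 0.11), and that of a region in reach of Pdgfrb was -0.13. The difference between NanogKO:Esrrb and NanogKO near Lum passed without NanogKO replicate 1 or without NanogKO:Esrrb:Nanog replicate 3. Endothelium and blood genes had 14 of 183, none higher and 1 lower, in Tek, the angiopoietin receptor (log2 fold change -1.30 ± 0.25 SE, edgeR adjusted p = 1.46e-04), and a region in Elovl1 in reach of the receptor gene Tie1 was not called (log2 fold change 0.07 ± 0.20 SE, edgeR adjusted p = 0.82). Housekeeping genes had 12 of 226, 2 higher and 1 lower: near Ppia, a cyclophilin gene, chr11:6381749-6381937 rose (log2 fold change 1.25 ± 0.30 SE, edgeR adjusted p = 0.0017), and near the ribosomal protein gene Rpl13a, chr7:45119207-45120130 fell (log2 fold change -0.57 ± 0.15 SE, edgeR adjusted p = 0.0049).

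Some genes held many of the regions. The predicted gene Gm38469 on chromosome 15, 152.582 kb long and beside the chromatin remodelling gene Arid2, had 12 within 50 kb of the 43 counted there. This was 27.9%, beside 7.35% of all regions, and the largest count of any protein-coding gene, for which it was picked. Its share was not the largest: among genes with at least 8 such regions, Nipbl and Ptprt had 32.0% each. With Esrrb 6 of the 12 fell and none rose, where 17.0% of all tested regions were lower and 20.0% higher. Of all chosen regions 19.9% were lower and 4.28% higher. In 8 every library with Nanog lay below all others, as in 11.6% of all tested regions and 44.5% of the chosen ones. At 1 of the 6, chr15:96114050-96114673, the fall did not pass without NanogKO replicate 2 or NanogKO:Esrrb replicate 2. The strongest, chr15:96131772-96132143, 2674 bp from the gene, had 2.03, 0.763 and 1.33 CPM in NanogKO:Esrrb:Nanog libraries, 4.39, 2.85 and 3.88 CPM in NanogKO:Esrrb libraries and 15.4, 16.4 and 15.8 CPM in NanogKO libraries (log2 fold change -2.10 ± 0.19 SE, edgeR adjusted p = 2.42e-09). A neighbour at chr15:96197405-96197760 had 0.705, 1.41 and 1.05 CPM in NanogKO:Esrrb:Nanog libraries, 3.64, 3.13 and 2.68 CPM in NanogKO:Esrrb libraries and 5.73, 6.08 and 5.05 CPM in NanogKO libraries (log2 fold change -0.84 ± 0.19 SE, edgeR adjusted p = 0.001). Both step down between groups without overlap, while chr15:96213905-96214240 had 1.56, 2.11 and 2.09 CPM in NanogKO:Esrrb:Nanog libraries, 3.26, 3.58 and 3.88 CPM in NanogKO:Esrrb libraries and 4.37, 3.55 and 2.98 CPM in NanogKO libraries, the groups without Nanog overlapping (log2 fold change -0.02 ± 0.19 SE, edgeR adjusted p = 0.95).

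**Figure D5:**
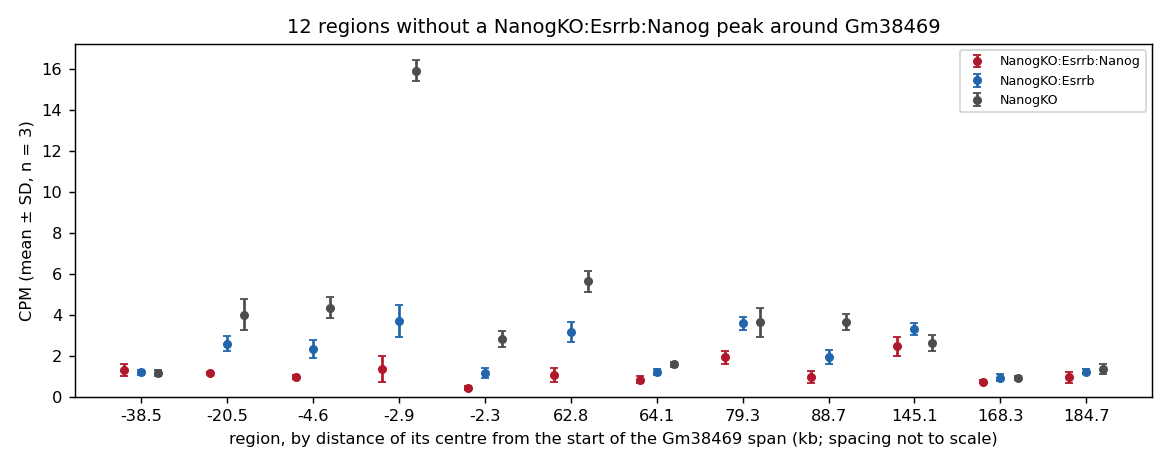
Mean CPM ± SD of 3 libraries per group at the 12 regions within 50 kb of Gm38469, ordered along the chromosome by the distance of their centre from the start of the gene's span (kb, not to scale). The NanogKO mean is highest at the region 2.9 kb before the start, at 15.9 CPM, and the regions furthest along lie near 1 CPM in every group.

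The diacylglycerol kinase gene Dgkg, next to the ETS gene Etv5, had 10 of 47, or 21.3%, of which 7 fell with Esrrb and none rose. The falls given above in reach of Etv5 are among these 7. Beside the 7 falls stand the same 17.0% lower and 20.0% higher of all tested regions, and 19.9% and 4.28% of all chosen ones. The strongest, in Dgkg at chr16:22532938-22533247, had 0.581, 0.528 and 0.484 CPM in NanogKO:Esrrb:Nanog libraries, 1.03, 2.04 and 1.39 CPM in NanogKO:Esrrb libraries and 4.07, 4.81 and 5.07 CPM in NanogKO libraries (log2 fold change -1.63 ± 0.22 SE, edgeR adjusted p = 1.20e-06), with the groups in steps. The BTB-domain gene Btbd9 had 10 of 64, or 15.6%, of which 1 fell and none rose. Nav2, a neuron navigator gene, also had 10, of 80, or 12.5%.

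The regions were shorter, had lower peak scores and lay further from gene ends than shared ones, given as a description since peaks chose both sets. Their median length was 334 bp, against 511 bp where all 3 lists had a peak, and their median peak score was 107 in the NanogKO:Esrrb list and 104 in the NanogKO list, against 467 and 419. Of the regions 47.5% lay inside a protein-coding gene, against 59.1% of shared regions and 55.7% of all; the annotation gives gene spans, so exons and introns were not told apart. Only 6.57% were within 1 kb of either end of a gene, against 19.2% of shared regions and 13.3% of all, and the median distance to a gene end was 21256 bp. They covered every chromosome of the rule, with a share of 6.26% of counted regions on chromosome 4 and 8.40% on X, the extremes, and 6044 different nearest genes within 50 kb. Another chosen region lay within 10 kb of 1788 of them, or 15.5%, where 14.4% of other regions had a chosen one that near. A region peaked in all lists lay within 10 kb of 6974. Those 6539 shared neighbours had a median of 0.05 on the log2 scale when Nanog was added to Esrrb, where other shared regions had 0.06. Of the neighbours 9.83% were called lower in that comparison, and of the other shared regions 8.51%.

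Hairpins of microRNAs lay within 500 bp of 20 regions, 21 hairpins of the 1005 in the RefSeq table. With Esrrb 7 of the 20 fell and none rose. Of all chosen regions 19.9% were lower and 4.28% higher, and of all tested regions 17.0% were lower and 20.0% higher. The region at Mir365-1 averaged 1.21 ± 0.231 CPM over NanogKO:Esrrb:Nanog, 1.83 ± 0.406 CPM over NanogKO:Esrrb and 4.03 ± 0.594 CPM over NanogKO libraries (SD, n = 3 each) (log2 fold change -1.14 ± 0.21 SE, edgeR adjusted p = 9.72e-05). That at Mir1941 averaged 1.93 ± 0.386 CPM over NanogKO:Esrrb:Nanog, 2.56 ± 0.330 CPM over NanogKO:Esrrb and 6.26 ± 0.769 CPM over NanogKO libraries (SD, n = 3 each) (log2 fold change -1.29 ± 0.18 SE, edgeR adjusted p = 2.55e-06), and that at Mir6989 averaged 3.02 ± 0.200 CPM over NanogKO:Esrrb:Nanog, 2.78 ± 0.440 CPM over NanogKO:Esrrb and 6.60 ± 0.288 CPM over NanogKO libraries (SD, n = 3 each) (log2 fold change -1.25 ± 0.16 SE, edgeR adjusted p = 9.55e-07). In all 3 the mean in NanogKO stood above both groups with Esrrb. At Mir141, an epithelial microRNA, the region averaged 4.31 ± 0.551 CPM over NanogKO:Esrrb:Nanog, 5.01 ± 0.591 CPM over NanogKO:Esrrb and 5.77 ± 0.267 CPM over NanogKO libraries (SD, n = 3 each) and was not called (log2 fold change -0.21 ± 0.15 SE, edgeR adjusted p = 0.31).

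At the threshold of the choice, 4 regions had the lowest peak score of 13 in a list that made them chosen. Of these, chr14:55885555-55885772 in Khnyn had 0.581, 0.851 and 0.553 CPM in NanogKO:Esrrb:Nanog libraries, 1.01, 0.971 and 1.01 CPM in NanogKO:Esrrb libraries and 0.854, 0.863 and 1.09 CPM in NanogKO libraries. Among regions left out for an interval of the NanogKO:Esrrb:Nanog list, the 3 with the lowest score there, 20, lay in Pdss2, Jak3 and Pth1r. That score carries a NanogKO:Esrrb replicate 3 peak name and so does not measure how near they were to having no peak with Nanog. The one in Jak3, chr8:71686435-71686636, had 4.87, 5.40 and 3.61 CPM in NanogKO:Esrrb:Nanog libraries, 3.20, 4.29 and 2.49 CPM in NanogKO:Esrrb libraries and 3.93, 3.75 and 3.93 CPM in NanogKO libraries, and the one in Pth1r, chr9:110725880-110726615, had 3.23, 4.17 and 4.44 CPM in NanogKO:Esrrb:Nanog libraries, 2.60, 3.97 and 3.20 CPM in NanogKO:Esrrb libraries and 7.12, 6.74 and 6.53 CPM in NanogKO libraries. Those 2 were thus more accessible with Nanog than the median chosen region in any library.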

How the data were processed

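The submitters deposited a table of counts per region for 9 ATAC-seq libraries and 3 peak lists, 1 per group, whose score column is the authors' own peak score. Per the submitters' processing notes the genome build is mm10 and the tools include cutadapt, Bowtie2, SAMtools 1.4.1, MACS2 2.2.0, bedtools 2.26.0 and deepTools 4.4.0, with no roles given. The adjustment of reads for the transposase and the way peaks were combined are not given in the sources used here. The design text names 12 samples, of which 9 were given here; the others were not analysed here.

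The authors' counts were tested as deposited with edgeR 4.0.16 in R 4.3.3: TMM factors, filterByExpr (157439 of 157497 regions kept, all 11568 chosen ones among them), group means over 9 libraries with 6 residual degrees of freedom, the quasi-likelihood F test and Benjamini-Hochberg adjustment over all tested regions at 0.05. The scripts were checked on simulated counts first. SE is the log2 fold change divided by the square root of F. Alternatives were DESeq2 1.42.0, other scalings, no filter, the 2 groups alone, the replicate number as a block, stricter peak rules and each library left out. Replicates of a group differed by more than sampling noise, with a chi-square of 3.55 to 9.50 per region and degree of freedom over regions with more than 10 counts in a pair, a minimum lowered after seeing the data. Replicate numbers came from the titles. Same-numbered NanogKO:Esrrb and NanogKO libraries deviated together (r of 0.117, 0.152 and 0.144 across regions), so the numbers were taken to pair those groups. Between NanogKO:Esrrb:Nanog and NanogKO:Esrrb the r were 0.146, 0.105 and 0.124, and between NanogKO:Esrrb:Nanog and NanogKO 0.136, 0.0022 and 0.0388. The main fit of group means has no term for this pairing, which only the block uses. Distances are to RefSeq protein-coding gene spans of GRCm38.p6, and the 32851 promoter windows and 1005 hairpins are RefSeq sequence tables of that build.

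The regions and the gene lists were chosen with earlier results of these data known. Regions were named by rule: those within 50 kb of Nanog or Esrrb, the 5 largest rises and falls with Esrrb without overlap of the groups and at or above the median abundance, the 10 of highest CPM, the 10 lowest with Nanog against NanogKO:Esrrb, per list the smallest p and highest CPM, the 3 genes with most regions (alphabetical at ties) and the 3 nearest the score threshold on each side; 2 regions that the rule names are not reported here. Promoters and microRNAs were picked after their values were seen.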

Additional observations from a re-analysis of the deposited data

How the results depend on the processing

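The counts called lower and higher in NanogKO:Esrrb than NanogKO (2300 and 495) and the medians kept their direction under every alternative run. With the replicate number as a block they were 2520 and 574, and the block changed no call of a described region other than those given with their blocked value. An overlap of at least 50% of the region gave 283 higher. Peaks at or above the median score of their list left 227 regions, 73 lower and 2 higher, with a median log2 fold change of -0.31. Keeping the 5152 regions whose NanogKO:Esrrb:Nanog libraries lay below all others gave 1297 lower, 59 higher and a median of -0.24. Leaving out 1 library at a time gave 1744 to 2605 lower and 311 (without NanogKO replicate 2) to 605 higher. The medians then ran from -0.20 to -0.15 for NanogKO:Esrrb against NanogKO, and for NanogKO:Esrrb:Nanog they ran from -0.73 to -0.51 against NanogKO:Esrrb and from -0.91 to -0.67 against NanogKO. The non-overlap count, left out by library after seeing the data, ran from 5497 to 7625.

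Of 75 regions tested singly over all alternatives, 1066 values kept direction and call, 22 newly passed, 18 no longer passed and 19 changed sign; the cause was not tested. No value that changed sign was called. They were -0.32 to 0.14 at Gpatch2l and -0.058 to 0.29 at Esrrb, -0.41 to 0.15 at Scaf8, -0.10 to 0.17 at Klf2 (0.0040 under the block), -0.13 to 0.42 at Pim1, -0.053 to 0.24 at Elovl1, -0.044 to 0.16 and -0.14 to 0.13 at 2 regions of Gm38469, and -0.10 to 0.16 and -0.26 to 0.0096 at 2 in Arid2, as log2 fold changes with 1 library left out. Levels of about 1 to 2 CPM and 3 libraries per group limit what single regions can show. An absent peak in a list is a call and not a level, and it did not always go with a low level. The region in Msi2 had 12.7 to 16.3 CPM with Nanog and no peak in that list.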
